A study of Mus musculus with 2 samples.

Results

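The guanylate-binding protein genes examined here are the 8 genes that carry the symbols Gbp2, Gbp3, Gbp4, Gbp5, Gbp6, Gbp7, Gbp8 and Gbp9 in the gene tables, out of 27933 symbols in all. They were followed in nuclei of mouse liver, in cell classes defined by marker genes, as a level per class and as detection per nucleus. The genes were selected on measured values of these same data, their low level in the HKO library relative to the WT library, so the difference between the libraries is given below as a description and carries no test. Single-nucleus RNA sequencing compared 2 livers of C57BL/6 mice aged 12 weeks, both taken 48 h after partial hepatectomy (PHx), an operation that removes part of the liver and is followed by regrowth of the remainder. One library came from a mouse of the Sox9f/f line, in which the gene for the transcription factor Sox9 is flanked by loxP sites, and is called WT. The other came from a Sox9HKO mouse and is called HKO. The labels spell out neither the abbreviation HKO nor the Cre driver, and they give the age in the genotype field, so the group of each library was read from its sample title. With 1 library per group there is no replicate, and no difference between the libraries could be set against the spread between animals. All intervals are exact 95% intervals for counting error only.

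Guanylate-binding proteins are large GTPases of the dynamin superfamily that interferons, above all interferon gamma, induce through transcription factors such as IRF1. They assemble on the membranes of vacuoles that hold bacteria or parasites and on bacteria in the cytosol, break these membranes down, and help to activate inflammasomes, the complexes that switch on inflammatory caspases. In liver they are known as part of the interferon response of hepatocytes and of the cells that line the sinusoids, including Kupffer cells, the resident macrophages.

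The 8 genes lie in 2 groups of neighbours (GENCODE vM21, GRCm38). On the plus strand of chromosome 3 stand Gbp5 (142493978 to 142522344), Gbp7 (142530342 to 142550149), Gbp3 (142560026 to 142573209) and Gbp2 (142620602 to 142638008), with Gbp2b between Gbp3 and Gbp2. On the minus strand of chromosome 5 stand Gbp8 (105014150 to 105139540), Gbp9 (105077630 to 105139539), Gbp4 (105115767 to 105139586) and Gbp6 (105270702 to 105293698). The annotated spans of Gbp8, Gbp9 and Gbp4 overlap on the same strand. Reads in the shared stretches, and reads that fit several of these related genes, can be lost or split by the counting, so the values of single chromosome 5 genes are uncertain. The symbol Gbp6 covers 2 rows of the table, ENSMUSG00000104713, which held 130 UMIs in HKO and 2275 in WT, and ENSMUSG00000079362, a longer model annotated as Gm43302 that spans Gbp10 and Gbp6 and held 7 and 229. They were summed.

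RefSeq promoters (GRCm38.p6, 250 bases before to 50 bases after a transcription start) were matched for 4 of the 8 genes, the chromosome 3 members. They are shown because they hold the letters of the elements through which interferons are known to act on this family. Searched on both strands were the core of the interferon-stimulated response element, GAAANNGAAA, and the core of the gamma-activated site, TTCNNNGAA, which reads the same on both strands. Capitals mark both motifs in the stretches below, all on the plus strand of chromosome 3 and 5′ to 3′, chr3:142496684-142496899 for Gbp5, chr3:142530210-142530312 for Gbp7, chr3:142559979-142560025 for Gbp3 and chr3:142620594-142620623 for Gbp2.
Gbp5: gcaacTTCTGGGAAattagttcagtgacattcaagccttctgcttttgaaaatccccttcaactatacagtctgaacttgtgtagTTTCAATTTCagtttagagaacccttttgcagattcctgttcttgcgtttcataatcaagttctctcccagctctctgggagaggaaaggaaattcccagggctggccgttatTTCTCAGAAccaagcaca
Gbp7: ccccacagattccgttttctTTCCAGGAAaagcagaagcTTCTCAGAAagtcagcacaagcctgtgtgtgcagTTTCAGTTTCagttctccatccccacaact
Gbp3: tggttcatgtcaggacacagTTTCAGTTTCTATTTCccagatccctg
Gbp2: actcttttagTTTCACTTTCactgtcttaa
In these stretches the response element core lies on the minus strand and is therefore read as its reverse complement. It begins 165 bases before the start in Gbp5, 53 before it in Gbp7 and 59 before it in Gbp2. In Gbp3 there are 2 overlapping matches that begin 45 and 39 bases before the first of its 2 starts, and the window of the second start holds none. The motif is present in 3.44% of the 32851 promoters of the table. The gamma-activated site core begins 245 and 52 bases before the start in Gbp5 and 106 and 87 bases before it in Gbp7, and 8.30% of all promoters hold it. These letters are not in the Gbp3 and Gbp2 windows. One GENCODE model of Gbp2 starts further upstream than the RefSeq start, so its first exon covers the Gbp2 match, and that stretch is kept to 30 bases. The GENCODE span of Gbp5 given above also starts upstream of the RefSeq start. The Gbp5 stretch therefore lies inside that span, though it overlaps no exon. The promoters of Gbp4, Gbp6, Gbp8 and Gbp9 were not used here.

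The HKO library held 14902 kept barcodes and the WT library 14515, with a median of 3285 and 3423 UMIs per kept barcode. Of these, 3855 HKO and 286 WT barcodes had under 2000 UMIs, and the median mitochondrial share was 0.109% and 0.331%. Both libraries share 70 barcodes. In all, 6 classes were named by markers, and nearly every large cluster was made up of 1 library: the hepatocyte-like nuclei are clusters 0 and 10 in HKO (8141 nuclei) and clusters 1 and 6 in WT (7686 nuclei), the endothelial-like clusters 3 and 7, the macrophage-like clusters 5 and 9, while the stellate-like nuclei of both libraries shared cluster 4. The 4 hepatocyte-like clusters had 8 to 14 of the 15 hepatocyte markers above the pooled nuclei of the other classes, a count that the endothelial-like clusters reached too (12 and 14), so the name rests mainly on the lack of markers of other classes. Nuclei of clusters led by cell cycle genes (508 HKO and 1066 WT nuclei), of a cluster whose leading genes are haemoglobin and mitochondrial ones (36 HKO and 2708 WT nuclei) and of 2 small immune clusters were kept out of the named classes. A finer clustering (Leiden resolution 1) also left unnamed 3395 HKO nuclei in a haemoglobin-led cluster and 692 in a mitochondrial-led one. Its hepatocyte-like clusters of HKO held 3382 and 674 nuclei. Sox9 stood at 5.91 CPM (CPM, the UMIs of a gene per 1000000 UMIs of the class; 5.14 to 6.77) in the hepatocyte-like nuclei of HKO and at 11.8 CPM (10.7 to 13) in those of WT. In endothelial-like, macrophage-like and stellate-like nuclei Sox9 stood at 5.80, 5.74 and 5.54 CPM in HKO. In WT it stood there at 8.44, 8.92 and 9.36 CPM, and the intervals of the libraries overlapped in each of these classes. Whether the counted 3′ stretch lies inside the deleted part of Sox9 was not given in the sources used here. RNA of hepatocytes was found in every class: the 15 hepatocyte markers stood, at the median, at 77.9% to 94.4% of their hepatocyte-like level in endothelial-like, macrophage-like and stellate-like nuclei. In the other direction, the markers of these 3 classes stood in hepatocyte-like nuclei at a median of 2.24% to 7.99% of their level in the class.

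In hepatocyte-like nuclei all 8 Gbp genes stood at a lower level in HKO than in WT. Their sum was 27.4 CPM (25.7 to 29.2) in HKO, from 979 UMIs, and 181 CPM (177 to 186) in WT, from 6367 UMIs, a 6.61-fold higher level in WT (6.18 to 7.08). Gbp6, which stood at 1.71 CPM in HKO against 40.7 CPM in WT, had the widest gap, 23.8-fold (18.4 to 31.3). Gbp2, whose product is anchored to vacuole membranes by a lipid and helps to activate caspase-11, followed with 0.504 CPM (0.299 to 0.797) in HKO against 7.01 CPM (6.16 to 7.94) in WT, 13.9-fold (8.61 to 23.8). The intervals of these 2 folds overlap.

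Gbp4 stood at 2.13 CPM in HKO against 15.6 CPM in WT, 7.30-fold higher in WT (5.74 to 9.41). Gbp8, at 4.01 CPM and 24.5 CPM, was 6.12-fold higher (5.12 to 7.36). Gbp7, whose product helps to assemble the NADPH oxidase on phagosomes, held the most UMIs of the 8 genes in both libraries and stood at 11.7 CPM (10.6 to 12.9) in HKO against 68.3 CPM (65.6 to 71.1) in WT, 5.85-fold (5.27 to 6.50). For Gbp9 the levels were 1.37 and 7.89 CPM, 5.75-fold (4.23 to 7.95). Taken over all nuclei of a library, the log2 ratio was −1.80 for Gbp8 and −1.30 for Gbp9, against −2.47 and −2.16 in hepatocyte-like nuclei. These 4 folds have overlapping intervals. Gbp5, known as a partner of the NLRP3 inflammasome, stood at 1.32 CPM (0.968 to 1.75) in HKO against 5.21 CPM (4.49 to 6.03) in WT, 3.96-fold (2.86 to 5.58). Gbp3 had the narrowest gap, with 4.71 CPM (4.02 to 5.48) and 12.2 CPM (11.1 to 13.4), 2.59-fold (2.16 to 3.11), an interval that overlaps that of Gbp5 alone. No member had overlapping intervals of its 2 levels.

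On the scale log2 of HKO over WT after adding 0.5 CPM to each level, 3 of the 8 genes (Gbp6, Gbp7 and Gbp8) had a mean of at least 10 CPM in hepatocyte-like nuclei, and these 3 had a ratio of −1 or lower. The other 5 were below that floor. Of the 8346 genes above it, 4.22% had such a ratio. All 8 passed a floor of 1 CPM and had a ratio of −1 or lower, beside 4.41% of the 12898 genes above that floor. Since this contrast chose the members, nothing is read from these counts. The median ratio over all genes at the 10 CPM floor was 0.17.

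**Figure D1:**
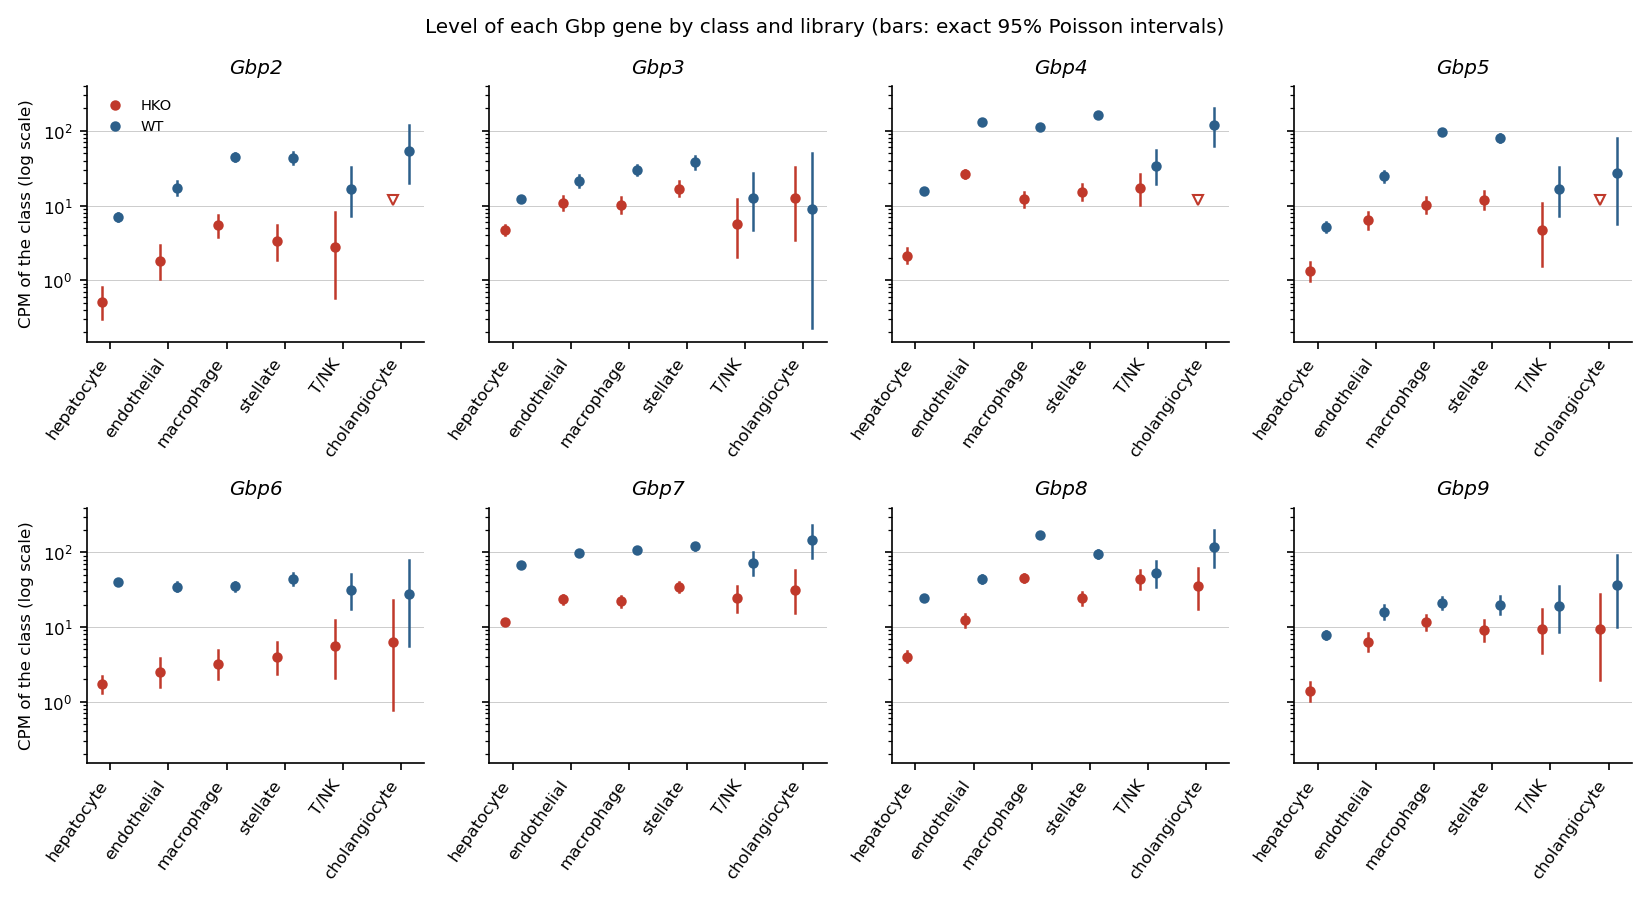
Level of each of the 8 Gbp genes (CPM of the class, log axis) in 6 classes of nuclei in HKO (red) and WT (blue); points are the levels of single libraries, bars are exact 95% Poisson intervals and open triangles are upper limits where no UMI was counted. Gbp6 is near 40 CPM in the WT hepatocyte-like nuclei (40.7 CPM) and hardly differs between the WT classes, while Gbp4 and Gbp5 are higher in WT macrophage-like and stellate-like nuclei than in hepatocyte-like ones.

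The 2 hepatocyte-like clusters within a library had close levels. In HKO the summed level was 27.3 CPM (25.6 to 29.2) in cluster 0 and 28.7 CPM (23 to 35.4) in cluster 10. In both libraries the second cluster is led by Meg3 and has Glul, a gene of hepatocytes around the central vein, among its 10 leading genes. In WT it was 179 CPM (174 to 184) in cluster 1 and 191 CPM (181 to 203) in cluster 6, with overlapping intervals. The clusters led by cell cycle genes stood at 29.1 CPM (68 UMIs in 508 nuclei) in HKO against 214 CPM in WT. The difference between the libraries was 7.35-fold (5.76 to 9.53) there.

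Ordered by summed Gbp level, hepatocyte-like nuclei were the lowest of the 6 classes in both libraries. In WT the order ran from macrophage-like nuclei at 617 CPM (597 to 637) over stellate-like at 605 CPM (577 to 635), cholangiocyte-like at 537 CPM (409 to 693), endothelial-like at 388 CPM (371 to 405) and T/NK-like at 255 CPM (211 to 304) to hepatocyte-like at 181 CPM. The first 3 have overlapping intervals, and the steps from cholangiocyte-like to endothelial-like, from there to T/NK-like and from T/NK-like to hepatocyte-like do not overlap. In HKO, macrophage-like nuclei at 121 CPM (113 to 129), stellate-like at 119 CPM (109 to 130), T/NK-like at 114 CPM (94.5 to 136) and cholangiocyte-like at 95.5 CPM (64.4 to 136) could not be told apart by their intervals. Endothelial-like nuclei followed at 90.8 CPM (84.6 to 97.3), overlapping the T/NK-like and cholangiocyte-like intervals, and hepatocyte-like nuclei at 27.4 CPM were below every other class. The T/NK-like and cholangiocyte-like values rest on few UMIs, 121 in each library for the first and 30 and 59 for the second.

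The members differed in how their level moved from class to class. In WT, Gbp5 was 18.4-fold (15.5 to 21.8) higher in macrophage-like than in hepatocyte-like nuclei, at 95.7 CPM against 5.21 CPM, and 15.4-fold higher in stellate-like nuclei (80.3 CPM). Gbp4 was 8.41-fold higher in endothelial-like (131 CPM), 7.22-fold in macrophage-like (112 CPM) and 10.4-fold in stellate-like nuclei (162 CPM). Gbp8 was 6.89-fold (6.29 to 7.55) higher in macrophage-like nuclei (169 CPM) and 1.80-fold in endothelial-like nuclei (44.1 CPM). Gbp2 stood at 44.5 CPM in macrophage-like and 43.6 CPM in stellate-like nuclei, 6.34-fold and 6.22-fold above hepatocyte-like nuclei. Gbp3 (1.75-fold to 3.10-fold), Gbp9 (2.04-fold to 2.66-fold) and Gbp7 (1.44-fold to 1.78-fold) had smaller gaps over these 3 classes.

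Gbp6 did not follow that order. In WT it stood at 40.7 CPM (38.6 to 42.8) in hepatocyte-like, 34.9 CPM (30.04 to 40.4) in endothelial-like, 35 CPM (30.5 to 40.1) in macrophage-like and 44.6 CPM (37.1 to 53.2) in stellate-like nuclei, 0.86, 0.86 and 1.10 times the hepatocyte-like level in the latter 3. Hepatocyte markers stood in the same WT classes at a median of 94.4%, 88.3% and 88.3% of their hepatocyte-like level (range over markers and classes, 65.6% to 116%). In WT the Gbp6 level outside hepatocyte-like nuclei lies within the range that hepatocyte markers show in these classes. In HKO, as given below, its interval lay above their range in macrophage-like and stellate-like nuclei and overlapped it in endothelial-like nuclei. Whether these classes express Gbp6 was not tested. For Gbp5 the comparison runs the other way: its hepatocyte-like level in WT was 5.45% of the macrophage-like one. Macrophage markers stood in hepatocyte-like nuclei at a median of 7.99% (5.33% to 32.8%), a range that holds the Gbp5 value. For Gbp4 and Gbp8 the hepatocyte-like level was 13.8% and 14.5% of the macrophage-like one, and for Gbp2 15.8%. These 3 lie above that median but within that range. Set against the stellate-like level, Gbp8 stood at 25.5%, above the range of the stellate markers (1.42% to 20.7%). Gbp2, Gbp4 and Gbp5 stood at 16.1%, 9.62% and 6.49%, within it. Whether hepatocytes express these 4 genes was not tested. Their hepatocyte-like levels and folds are values of the class with its free RNA. For Gbp9 the level was 37.6% of the macrophage-like one, for Gbp3 41.0% and for Gbp7 62.4%, above the range of the macrophage markers. The part of free RNA in these levels was not tested.

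In HKO, the macrophage-like level was above the hepatocyte-like one for all 8 genes. It was 11.4-fold higher for Gbp8 (45.5 CPM against 4.01 CPM), 10.8-fold for Gbp2, 8.47-fold for Gbp9, 7.83-fold for Gbp5 and 5.67-fold for Gbp4, and 1.89-fold to 2.19-fold for Gbp6, Gbp7 and Gbp3. Endothelial-like nuclei of HKO were led by Gbp4 in this respect, at 26.7 CPM (23.4 to 30.4), 12.6-fold (9.65 to 16.5) above hepatocyte-like nuclei. Gbp6 stood at 2.50 CPM (1.57 to 3.79) there, 1.46-fold above (0.856 to 2.42).

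Between the libraries, the summed Gbp level was higher in WT in each of the 6 classes. The fold was 4.27 (3.93 to 4.64) in endothelial-like, 5.11 (4.74 to 5.52) in macrophage-like, 5.07 (4.60 to 5.60) in stellate-like, 5.63 (3.57 to 9.05) in cholangiocyte-like and 2.24 (1.72 to 2.90) in T/NK-like nuclei. Median UMIs per nucleus were lower in HKO than in WT in the first 3 of these classes (2062 against 3290, 2232.5 against 3396 and 2291 against 3079), whereas hepatocyte-like nuclei had 3922 in HKO and 3842 in WT. Summed endothelial, macrophage and stellate markers in hepatocyte-like nuclei stood at 173, 275 and 140 CPM in HKO and at 189, 301 and 223 CPM in WT, and summed hepatocyte markers at 14763 and 25921 CPM. The part of these differences in the Gbp values was not tested.

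The folds of Gbp5 and Gbp4 between the libraries were higher in macrophage-like and stellate-like nuclei than in hepatocyte-like ones, but not in endothelial-like and T/NK-like nuclei. In macrophage-like and stellate-like nuclei the intervals of these folds overlapped those of hepatocyte-like nuclei, except for Gbp5 in macrophage-like nuclei. The Gbp4 intervals in endothelial-like and T/NK-like nuclei (0.949 to 4.13 in the latter) lay below the hepatocyte-like one (5.74 to 9.41). In macrophage-like nuclei Gbp5 stood at 10.3 CPM (8.04 to 13) in HKO against 95.7 CPM (88.0 to 104) in WT, 9.28-fold (7.23 to 12.1), an interval that does not overlap the one for hepatocyte-like nuclei. Gbp4 stood at 12.1 and 112 CPM there, 9.30-fold (7.39 to 11.8), and at 15.3 and 162 CPM in stellate-like nuclei, 10.6-fold (8.19 to 13.8), but at 26.7 and 131 CPM in endothelial-like nuclei, 4.90-fold (4.21 to 5.70). Gbp5 stood at 12.0 and 80.3 CPM in stellate-like nuclei, 6.71-fold (4.96 to 9.21), and at 6.37 and 24.8 CPM in endothelial-like nuclei. In T/NK-like nuclei Gbp5 stood at 4.71 CPM (1.53 to 11) in HKO against 16.8 CPM (7.27 to 33.2) in WT, and Gbp4 at 16.9 CPM (10.0 to 26.8) against 33.7 CPM (19.3 to 54.7), with overlapping intervals. Gbp9 had its narrowest gap in macrophage-like nuclei, 11.6 CPM (9.21 to 14.5) in HKO against 21 CPM (17.5 to 25.0) in WT, 1.80-fold (1.35 to 2.42). Gbp3 was 1.95-fold (1.47 to 2.59) higher in WT in endothelial-like nuclei, where it stood at 10.9 and 21.3 CPM. In T/NK-like nuclei Gbp8 stood at 44.2 CPM (32.5 to 58.8) in HKO against 52.6 CPM (34.1 to 77.7) in WT, and the interval of its fold, 0.702 to 1.97, includes 1. The fold intervals of Gbp3 (0.598 to 8.37), Gbp4 (0.949 to 4.13) and Gbp9 (0.724 to 5.51) include 1 in this class too. Gbp2, Gbp4 and Gbp5 had no UMI in the 123 HKO cholangiocyte-like nuclei, where 3 UMIs would amount to 9.55 CPM. Gbp2 and Gbp4 had 6 and 13 UMIs in the 32 WT nuclei. The lower limit of the fold of WT over HKO was 3.37 for Gbp2 and 8.72 for Gbp4. Gbp5 had 3 UMIs in those WT nuclei, 27.3 CPM (5.63 to 79.8), an interval that overlaps the HKO one (0 to 11.7). Gbp3 was higher in HKO in this class, 12.7 CPM from 4 UMIs against 9.11 CPM from 1 UMI. Its fold interval (0.0145 to 7.23) includes 1, as do those of Gbp6 (0.492 to 51.4) and Gbp9 (0.646 to 26.0).

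At a mean of at least 10 CPM, 7 of the 8 genes were measured in endothelial-like nuclei and 6 had a log2 ratio of −1 or lower, beside 4.41% of all genes at that floor, Gbp3 being the other measured one and Gbp2 the one under the floor. In macrophage-like nuclei 8 were measured and 7 had such a ratio (3.87% of all genes), Gbp9 being the exception, and in stellate-like nuclei 8 of 8 did (4.38%). At 1 CPM the counts were 7 of 8 in endothelial-like (4.99%), 7 of 8 in macrophage-like (4.4%) and 8 of 8 in stellate-like nuclei (5.91%). As the classes share the libraries and the free hepatocyte RNA with hepatocyte-like nuclei, these counts are not independent of the choice of members.

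**Figure D2:**
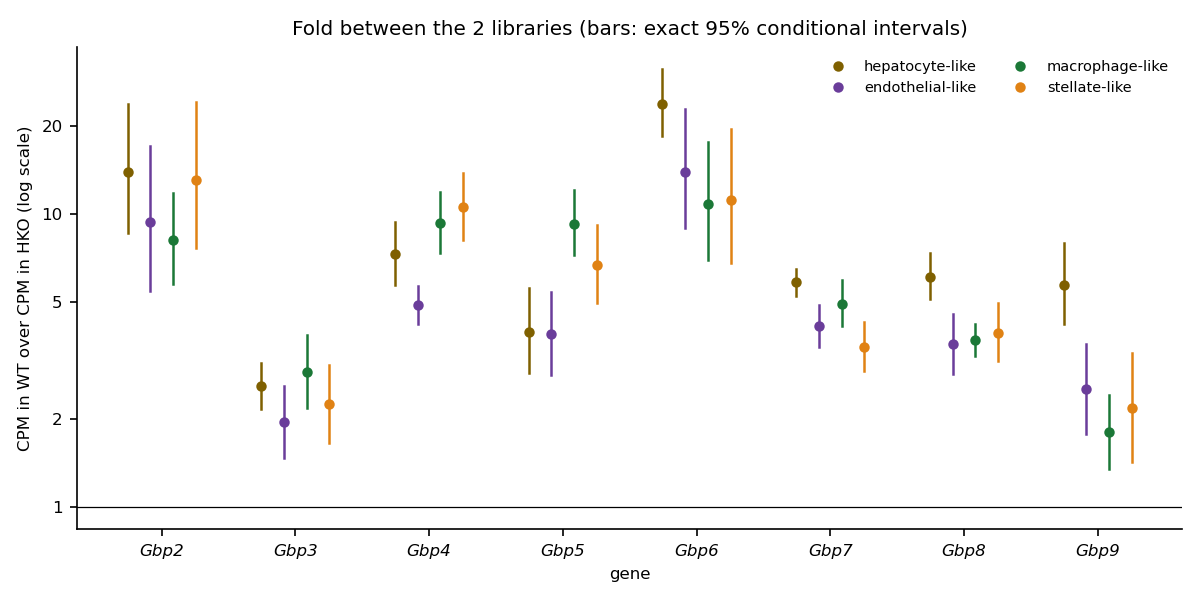
Fold between the libraries (CPM in WT over CPM in HKO, log axis) for each Gbp gene in hepatocyte-like, endothelial-like, macrophage-like and stellate-like nuclei; points are ratios of 1 library to 1 library and bars exact 95% conditional intervals. All points lie above 1; Gbp6 in hepatocyte-like nuclei is the highest at 23.8 and Gbp9 in macrophage-like nuclei the lowest at 1.80.

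The makeup of the Gbp UMIs within a class differed between the libraries too. In hepatocyte-like nuclei Gbp6 made up 6.23% of the Gbp UMIs in HKO and 22.4% in WT, Gbp3 17.2% and 6.72%, and Gbp7 42.6% and 37.7%. In macrophage-like nuclei Gbp8 made up 37.7% in HKO and 27.4% in WT, Gbp5 8.55% and 15.5%, and Gbp4 10.0% and 18.2%. These shares are of UMIs and depend on how many 3′ tags each gene yields, so they are compared between libraries and classes for the same gene only.

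Detection per nucleus was compared after drawing each nucleus down to 2000 UMIs. At that depth at least 1 UMI of the 8 genes was found in 5.34% of HKO (4.83% to 5.88%, 385 of 7216) and in 30.5% of WT hepatocyte-like nuclei (29.5% to 31.6%, 2323 of 7615). Without thinning the shares were 11% and 50.9%. In macrophage-like nuclei 23.1% of HKO (20.5% to 25.8%) and 76.5% of WT nuclei (73.8% to 79.0%) were positive, in stellate-like nuclei 21.7% and 70.9%, in endothelial-like nuclei 16.9% and 55.9%, in cholangiocyte-like nuclei 16.1% and 63.3% and in T/NK-like nuclei 20.3% (14.1% to 27.7%) and 34.5% (25.7% to 44.2%). The shallow nuclei left out numbered 925 of 8141 hepatocyte-like nuclei in HKO and 71 of 7686 in WT, and 746 of 1760 macrophage-like nuclei in HKO and 17 of 1054 in WT. No class in these libraries is known to lack all of these genes, so no share serves as a background for the family, and the marker values above stand in its place.

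Gbp7 was the member found in most hepatocyte-like nuclei, 2.27% (1.94% to 2.64%) in HKO and 12.9% (12.1% to 13.6%) in WT. Gbp6 was found in 0.374% (0.247% to 0.544%) and 7.45% (6.87% to 8.06%). Gbp2 was found in 4 of 7216 HKO nuclei, 0.0554%, and in 1.60% of WT nuclei. In WT macrophage-like nuclei Gbp8 was found in 37.1% (34.2% to 40.1%), Gbp4 in 25.0%, Gbp7 in 23.8% and Gbp5 in 23.1% of nuclei, against 8.68%, 3.45%, 4.14% and 3.06% in HKO.

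Nuclei with UMIs of 2 or more of the genes were as frequent in WT hepatocyte-like nuclei as the shares of the single genes give when multiplied: 4.46% (4.01% to 4.95%) were observed and 4.24% would be found if the genes were detected independently, a ratio of 1.05. The same comparison gave 20.5% (18.2% to 23%) against 18.8% in endothelial-like, 41.5% (38.4% to 44.5%) against 42.8% in macrophage-like and 33.6% (29.9% to 37.5%) against 33.6% in stellate-like nuclei of WT. At this depth the product lies inside the interval in each of these 4 classes, which does not show that the genes were detected independently. The share with at least 1 member was below its product in WT endothelial-like nuclei, 55.9% (53.0% to 58.9%) against 59.4%, and in WT macrophage-like nuclei, 76.5% (73.8% to 79.0%) against 80.2%. Without thinning, where nuclei differ in depth, 2 or more members were found in 16.0% of WT hepatocyte-like nuclei (15.2% to 16.8%) against 14.7% by the product. The unthinned share was below the product in macrophage-like nuclei, 69.0% (66.1% to 71.8%) against 75.1%, and in stellate-like nuclei, 57.4% (53.4% to 61.3%) against 62.9%. In HKO, 12 of 7216 hepatocyte-like nuclei had 2 or more members, 0.166% (0.0860% to 0.290%) against 0.113%, and 31 of 1014 macrophage-like nuclei, 3.06% (2.09% to 4.31%) against 2.51%. The highest number of members in 1 nucleus at this depth was 6, in WT macrophage-like nuclei, and 4 in WT and 3 in HKO hepatocyte-like nuclei.

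**Figure D3:**
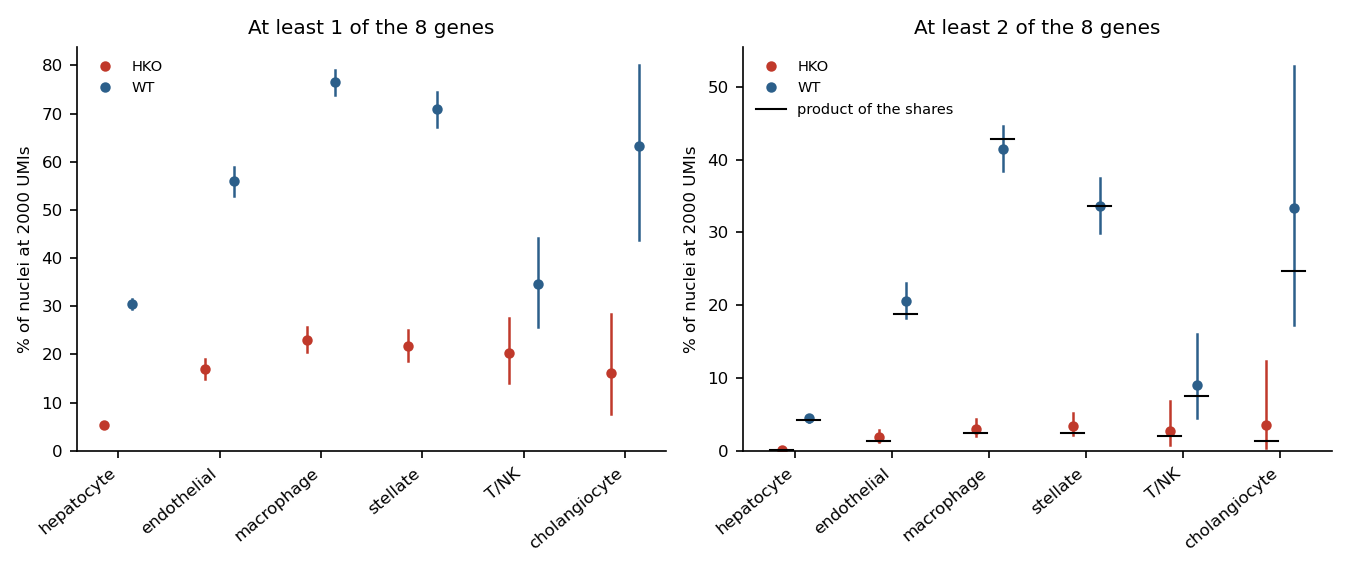
Share of nuclei (%, each drawn down to 2000 UMIs) with UMIs of at least 1 (left) and at least 2 (right) of the 8 Gbp genes, by class, in HKO (red) and WT (blue), with exact 95% Clopper-Pearson intervals; black lines give the share expected from the product of the single shares. WT nuclei lie above HKO nuclei in all 6 classes, from 30.5% against 5.34% in hepatocyte-like nuclei to 76.5% against 23.1% in macrophage-like nuclei on the left, and most points on the right lie close to their black lines.

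Pair by pair, 19 of the 28 pairs of members could be compared in WT hepatocyte-like nuclei (at least 5 nuclei with both expected). The median ratio of observed to expected nuclei was 1.08, and no pair had an interval that left out 1. Gbp6 and Gbp7, on different chromosomes, were found together in 81 nuclei where 73.0 were expected, a ratio of 1.11 (0.882 to 1.38). Gbp7 and Gbp8 were found together in 42 against 48.5, 0.866 (0.624 to 1.17). In WT endothelial-like nuclei the median over 16 pairs was 1.29, and 3 pairs had intervals above 1: Gbp4 with Gbp7 in 80 nuclei against 59.4 expected (ratio 1.35, 1.07 to 1.68), Gbp4 with Gbp5 in 31 against 19.6 (1.58, 1.07 to 2.24) and Gbp3 with Gbp7 in 18 against 10.2 (1.77, 1.05 to 2.80). In WT macrophage-like nuclei 2 of 26 pairs had such an interval, Gbp4 with Gbp8 (124 against 96.2, 1.29, 1.07 to 1.54) and Gbp4 with Gbp5 (78 against 59.9, 1.30, 1.03 to 1.62), with a median of 1.13. In stellate-like nuclei 1 of 22 did, Gbp4 with Gbp6 (22 against 13.7), with a median of 1.06. Gbp4 and Gbp8 overlap on the chromosome, so reads of 1 transcript could be counted for either. None of the WT pairs compared had an interval below 1, and with this many pairs some intervals are expected to leave out 1 by chance, on either side. Ratios above 1 were found for 13 of 19 pairs in hepatocyte-like, 12 of 16 in endothelial-like, 20 of 26 in macrophage-like and 15 of 22 in stellate-like nuclei. In cycling WT nuclei 1 of 4 pairs had one. Whether this exceeds chance was not tested. The intervals are Poisson ones, too wide where shares are large, so including 1 does not show independence. In HKO no pair reached 5 expected nuclei in any class. Below that minimum, Gbp4 with Gbp8 was found in 8 HKO endothelial-like nuclei where 2.17 were expected, a ratio of 3.69 (1.59 to 7.28), and the hepatocyte-like pairs Gbp2 with Gbp5 and Gbp2 with Gbp6 had intervals above 1 that rest on 1 nucleus each. These 3 pairs were singled out after their values were seen.

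Any Gbp gene together with genes without a known interferon link (Hnf4a, Ppara, Nr1h4, Egfr, Insr and Met) gave ratios of 0.974 to 1.05 in WT hepatocyte-like nuclei. Egfr was found in all 7615 of these nuclei, so its ratio of 1 carries no information. Together with 9 interferon-regulated genes the ratio ran from 0.949 for Ifit2 to 1.44 for Oasl2, with 1.06 (0.970 to 1.17) for Igtp, 1.04 (0.961 to 1.13) for Irf1 and 1.25 (0.95 to 1.61) for Isg15. Of the 9, Oasl2 alone had an interval above 1, with 36 nuclei against 25.0 expected (1.01 to 1.99). These too are Poisson intervals of the nuclei with both genes. They are too wide where a share is as large as that of any Gbp gene, 2323 of 7615 nuclei. An interval that includes 1 here does not show independence. Some comparator genes left out 1 in HKO. Met with any Gbp gene had a ratio of 1.19 (1.0002 to 1.40) in HKO hepatocyte-like nuclei. Hnf4a had one of 0.795 (0.629 to 0.992) in HKO endothelial-like nuclei. Both were singled out after their values were seen.

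**Figure D4:**
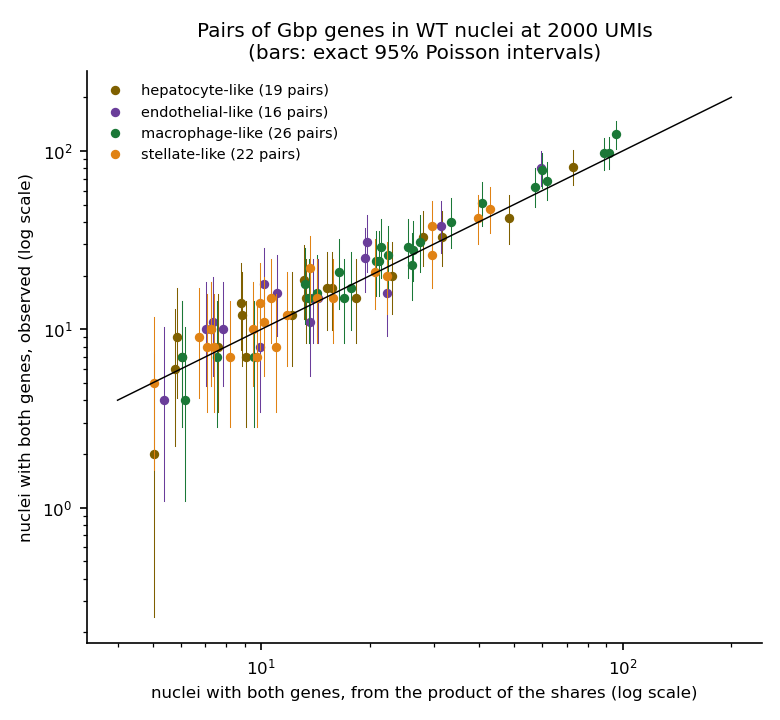
Pairs of Gbp genes in WT nuclei drawn down to 2000 UMIs: nuclei with both genes as the product of the single shares gives (x, log axis) and as observed (y, log axis), for pairs with at least 5 expected nuclei in 4 classes; bars are exact 95% Poisson intervals and the line marks equality. Most pairs lie near the line, and the macrophage-like pair Gbp4 with Gbp8 is the highest point at 124 observed and 96.2 expected.

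Of the other Gbp genes, Gbp2b and Gbp10 are in the tables and Gbp11 was not used here. Gbp10, whose span is covered by the longer Gbp6 model, stood at 0.308 CPM (11 UMIs) in HKO against 13.9 CPM in WT hepatocyte-like nuclei, 45-fold (24.9 to 90.8). In WT it stood at 11.3 CPM in endothelial-like, 8.59 CPM in macrophage-like and 7.92 CPM in stellate-like nuclei, and at 18.2 CPM in cholangiocyte-like nuclei from 2 UMIs (2.21 to 65.8). Gbp2b, the neighbour of Gbp2, stood at 0.224 CPM (8 UMIs) and 3.42 CPM in hepatocyte-like nuclei, 15.2-fold (7.49 to 36.1), and at 3.68 and 64.8 CPM in macrophage-like nuclei, 17.6-fold (11.7 to 27.5). Its promoter also holds the interferon-stimulated response element core, 137 bases before the start.

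The genes that act before and beside the guanylate-binding proteins were taken from lists chosen with earlier results of these data known. Each count of list members at a log2 ratio of −1 or lower in hepatocyte-like nuclei stands beside the 4.22% of all genes measured at 10 CPM that had such a ratio. Ligands came first: Ifng, the gene of interferon gamma, had 2 UMIs in HKO and 3 in WT hepatocyte-like nuclei and 3 and 1 UMIs in T/NK-like nuclei, too few to compare, and Il15, a cytokine of natural killer cells, stood at 14.8 and 18.5 CPM in hepatocyte-like nuclei. Of 19 receptor and signalling genes 16 were measured at 10 CPM in hepatocyte-like nuclei, 2 had a log2 ratio of −1 or lower, none of 1 or higher, and the median was −0.03. Irf1, an interferon-induced factor that in turn acts on Gbp promoters, stood at 30.7 and 144 CPM, 4.71-fold (4.41 to 5.03), and Irf8 at 4.90 and 16.0 CPM, 3.25-fold. Ifnar2, a chain of the type I interferon receptor, stood at 35.7 and 58.9 CPM, and Ptpn2, a phosphatase that damps cytokine signalling, at 222 and 159 CPM. The interferon gamma receptor chain Ifngr1 stood at 14 and 15.4 CPM, and Jak1, the kinase bound to the receptor, at 288 and 239 CPM. Stat2 and Irf9, parts of the type I interferon complex, stood at 342 and 340 CPM and at 62.9 and 57.7 CPM. Of these signalling genes, Ifngr1, Jak1, Stat2 and Irf9 were named for their roles and not by the rule on size.

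Among the immunity-related GTPases, a second family of interferon-induced GTPases that act on the same vacuoles, 6 of 7 measured genes had a ratio of −1 or lower and the median was −2.27. Iigp1 stood at 115 CPM in HKO against 1884 CPM in WT hepatocyte-like nuclei, 16.4-fold (15.9 to 16.9), Igtp at 7.93 and 106 CPM, 13.3-fold, Ifi47 at 3.36 and 39.5 CPM, 11.8-fold, and Irgm1 at 16.9 and 83.4 CPM, 4.94-fold. In WT, unlike Gbp2, Gbp4, Gbp5 and Gbp8, Iigp1 and Igtp stood at close levels in hepatocyte-like and macrophage-like nuclei: Iigp1 was 0.95 times and Igtp 0.92 times as high in macrophage-like as in hepatocyte-like nuclei. These values lie within the range that hepatocyte markers show in that class, relative to hepatocyte-like nuclei (78.6% to 104%).

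Class I antigen processing genes, which interferons also induce, had 7 of 15 measured members at −1 or lower and a median of −0.95. Psmb9, an immunoproteasome subunit, stood at 9.39 and 47.0 CPM, 5.01-fold, and the peptide transporter Tap1 at 18.8 and 72.4 CPM, 3.86-fold. Of the chemokine and surface genes that interferon gamma induces, 2 of 3 measured had such a ratio: Cxcl10 stood at 0.953 and 22.3 CPM, 23.4-fold (16.6 to 34.0), and Cd274, the gene of PD-L1, at 4.79 and 62.6 CPM, 13.1-fold (11.2 to 15.3), while Icam1 stood at 35.8 and 42.5 CPM. In the type I interferon list 2 of 16 measured genes were at −1 or lower with a median of −0.48: Zbp1, a sensor of nucleic acids, stood at 15.8 and 72.5 CPM, 4.60-fold, and Herc6 at 66.1 and 134 CPM, 2.03-fold. Rnf213 and Parp14 stood at 245 and 465 CPM and at 64.4 and 125 CPM. Of the inflammasome partners Gsdmd, the pore protein, was the only one measured at 10 CPM, with 15.9 and 25.3 CPM. No class II gene reached the floor. In macrophage-like nuclei, 2 class II genes were measured and both were at −1 or lower (3.87% of all genes), among them Ciita, the class II transactivator, at 2.65 and 32.1 CPM, 12.1-fold (7.45 to 20.8); it was chosen after its values were seen.

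**Figure D5:**
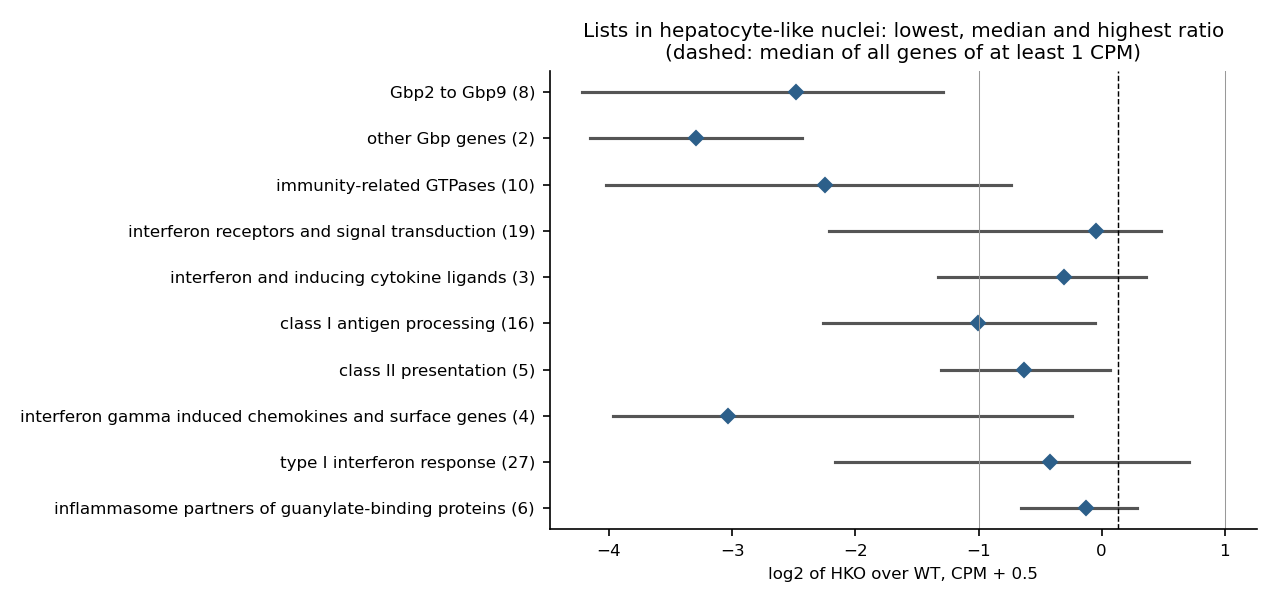
Log2 of HKO over WT (CPM + 0.5) in hepatocyte-like nuclei for the 8 Gbp genes and 9 lists of related genes: lines run from the lowest to the highest member with a mean of at least 1 CPM, diamonds mark medians and the number of members is in brackets. The dashed line is the median of all genes above that floor; the receptor and signalling list has its median near it at −0.05 while its lowest member, Irf1, is at −2.22.

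Over the 12 sums of class and library, the genes whose level was most like the summed Gbp level were ranked among 8679 genes by Pearson's r of log2(CPM + 0.5). Rbl1, a relative of the retinoblastoma protein, came first with an r of 0.98, and it was 0.99 over the 6 HKO sums and 0.93 over the 6 WT sums. Herc6, a ubiquitin ligase gene of the type I interferon list, followed with 0.95 (0.97 and 0.93 within the libraries). Also among the first 10 were Rpl18, Rpl9, Actb, Rps2, H2afz, C2cd5 and Rad54b, with r from 0.92 to 0.94 and a weaker likeness within WT, 0.61 to 0.79. The 12 points share 2 libraries, differ in depth from 109810 to 35681929 UMIs and hold the same free RNA, so these values describe the points and carry no p.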

How the data were processed

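Nuclear RNA of 1 HKO and 1 WT liver was profiled with a droplet-based 3′ method. The values are raw counts of UMIs per gene and barcode as the authors deposited them, made with Cell Ranger 5.0.0 per the file headers. STAR, Seurat 3.2.0 and GRCm38 are also named in the submitters' processing notes, with no role or order, so how reads shared by related genes were treated was not given in the sources used here. Kept were barcodes in which 500 or more genes were detected and mitochondrial UMIs made up less than 10%: 14902 of the 14912 barcodes of HKO and 14515 of the 14701 of WT, with 61123904 and 64609301 UMIs in all barcodes. Scrublet marked 0 barcodes, so doublets were in effect not removed.

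Both libraries were clustered together with scanpy 1.11.5 (2000 variable genes, 30 principal components, 15 neighbours, Leiden resolution 0.5, leidenalg 0.10.2). Markers, at 20 CPM or more, were counted as above when over 2-fold higher than in the other nuclei of the library. A cluster took the name of a class other than hepatocyte with at least 3 markers above, when the next such class had at most 0.5 times as many and no class had more markers among the 10 leading genes. A remaining cluster was called hepatocyte-like when no other class had 3 markers above, at least 3 hepatocyte markers exceeded their level in the pooled clusters of the other classes, and neither mitochondrial genes nor markers of another class were among its 10 leading genes. These scoring rules were set after seeing the data. Clusters led by cell cycle genes were kept out of hepatocyte-like nuclei in both libraries, a choice made after seeing the data. Counts were summed per class and library and scaled to CPM. Ratios are log2 after adding 0.5 CPM. Intervals are exact Poisson for CPM and for nuclei with both genes of a pair, exact conditional for folds and Clopper-Pearson for shares. All are at 95%, for counting error only. UMIs of a pair of genes were compared with the product of their shares after thinning every nucleus to 2000 UMIs. The calculation was tested on simulated data. R 4.3.3 with edgeR 4.0.16 gave the TMM factors, and the other steps used Python 3.11.15 with pandas 2.3.3, scipy 1.17.1, numpy 2.4.6, matplotlib 3.10.9, igraph 0.11.9 and scikit-learn 1.9.0.

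The members and lists were chosen with earlier results of these data known. Named genes are the 8 members, the other Gbp genes, per list the 4 members (or fewer) whose hepatocyte-like ratio is largest in size at a mean of 10 CPM, and the 10 genes most like the summed Gbp level over sums of at least 100000 UMIs, without unnamed models, Xist, Y-linked and mitochondrial genes. Some genes of the lists and of the ranking are not reported here. Protein sequences were not used here.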

Additional observations from a re-analysis of the deposited data

How the results depend on the processing

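No alternative reversed a direction: the summed Gbp level and each of the 8 genes stayed lower in HKO in hepatocyte-like nuclei under every alternative run. The ratios of single genes ranged from −4.34 to −3.86 for Gbp6, −3.00 to −2.80 for Gbp2, −2.73 to −2.33 for Gbp4, −2.63 to −2.20 for Gbp7, −2.60 to −1.80 for Gbp8, −2.28 to −1.30 for Gbp9, −2.24 to −1.55 for Gbp5 and −1.41 to −1.11 for Gbp3, and the values of Gbp8 and Gbp9 nearest 0 come from all nuclei of a library together. The log2 ratio of the sum, −2.70 in hepatocyte-like nuclei, was −2.84 with TMM factors, and it ranged from −2.84 to −2.64 over all alternatives. In endothelial-like nuclei (−2.09) it was −2.22 with median ratio size factors and with TMM factors, −1.80 with each nucleus weighted equally and −2.48 over nuclei of at least 2000 UMIs. In macrophage-like nuclei (−2.35) it was −2.57 over nuclei of at least 2000 UMIs. In stellate-like nuclei (−2.34) it was −2.17 with equal weights, −2.50 over nuclei of at least 2000 UMIs and −2.50 without the member with most UMIs. Both scalings move all ratios down by 0.08 to 0.14. Adding the cycling clusters or the haemoglobin-led cluster to the hepatocyte-like nuclei, alternatives chosen after seeing the data, gave −2.73 and −2.76. Haemoglobin genes stood at 41.9 CPM in cluster 0 of HKO and at 2.17 CPM in cluster 1 of WT, both within the hepatocyte-like class. With the hepatocyte-like clusters of Leiden resolution 1 the ratio of the sum was −2.66. The cause of these shifts was not tested.

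Shares of positive nuclei depend on depth by construction. Without thinning they were 11% (HKO) and 50.9% (WT) in hepatocyte-like and 33.5% and 91.0% in macrophage-like nuclei, at 1000 UMIs 2.68%, 17.0%, 14.6% and 52.8%, and with at least 2 Gbp UMIs required 0.236%, 5.79%, 4.34% and 47.4%. The co-detection ratio of WT hepatocyte-like nuclei was 0.860 at 1000 UMIs instead of 1.05. Of the 10 genes most like the Gbp sum, 2 were among the first 10 within HKO alone and 0 within WT alone. Interferon list members at −1 or lower in hepatocyte-like nuclei numbered 19 at 10 CPM, beside 4.22% of all 8346 genes measured. At 1 CPM they numbered 29, Gbp2b and Gbp10 included, beside 4.41% of all 12898 genes. With either other scaling they numbered 22. Those scalings lower every hepatocyte-like ratio, by 0.11 and 0.14, and no share of all genes is given for them, so nothing is read from the rise. No paired analysis was possible because the groups share only 1 replicate number and no test was made. Leaving out a replicate was not possible with 1 library per group.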

Other observations

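A small set of HKO endothelial-like nuclei stood apart in its Gbp level. Of the 2356 HKO nuclei of this class, 39 fell into cluster 7, which otherwise held 1118 WT nuclei, and their summed Gbp level was 291 CPM (195 to 418, 29 UMIs), against 88.5 CPM (82.3 to 95) in the 2317 HKO nuclei of cluster 3. Gbp4 accounted for 15 of the 29 UMIs, 151 CPM (84.3 to 248), against 25.3 CPM (22.1 to 28.9) in cluster 3 and 131 CPM in WT nuclei of cluster 7. Gbp6 had no UMI in the 39 nuclei (0 to 37.0 CPM). That interval holds both its level in HKO nuclei of cluster 3, 2.53 CPM, and in WT nuclei of cluster 7, 35.1 CPM. Vwf, the gene of von Willebrand factor in larger vessels, stood at 311 CPM (211 to 442) in the 39 nuclei and at 1.38 CPM in cluster 3, and Stab2, a marker of sinusoidal endothelium, at 221 CPM (138 to 334) and 1287 CPM. Iigp1 stood at 161 CPM in the 39 nuclei against 1865 CPM in the WT nuclei of cluster 7. Those WT nuclei differed from the 39 in both vessel markers, with Vwf at 6.55 CPM (4.54 to 9.15) and Stab2 at 1228 CPM. None of the 39 barcodes is shared with the WT library. The nuclei were set apart by a clustering that used the expressed genes, and Vwf, Stab2 and the other genes here were chosen after their values were seen.

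In nuclei left without a class name the order of the libraries was the same. The cluster with B and plasmacytoid dendritic cell markers stood at 68.8 CPM (52.1 to 89.1) in HKO against 206 CPM (149 to 278) in WT, and the cluster with monocyte and dendritic cell markers at 66.6 CPM (48.6 to 89.1) and 338 CPM (263 to 428). The haemoglobin-led cluster stood at 221 CPM (211 to 232) in its 2708 WT nuclei, above the 181 CPM of the WT hepatocyte-like nuclei.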
